A study of Arabidopsis thaliana with 16 samples.

Results

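Monoubiquitinated histone H2A (H2Aub) was compared between wild-type Col-0 and ubp5 seedlings of Arabidopsis thaliana through the peak lists of 6 ChIP-seq samples, 3 of each genotype, out of 16 samples in the whole series. The ubp5 plants carry a CRISPR/Cas9 deletion in UBP5 in the Col-0 background and come from a single mutant line. All seedlings were harvested 12 days after germination, and no other allele or treatment separates the groups. The remaining samples are 4 H3K27me3 libraries and 6 inputs, and the inputs were not analysed here. The samples were chosen by their labels, and peaks with a score over 30 were kept, the score being the peak caller's −log10 q value times 10. Each peak list was laid over the 33056 genes that the RefSeq annotation places on the 5 nuclear chromosomes, of which 27444 encode proteins, and the bases of each gene under a peak were counted.

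H2Aub is a single ubiquitin on a lysine in the C-terminal tail of histone H2A. In plants it is placed by Polycomb repressive complex 1, whose RING-finger subunits act as the ubiquitin ligase, and it can be removed by ubiquitin-specific proteases, the family to which UBP5 belongs. The mark is known mostly from the bodies of genes, often close to their start, and it occurs both with and without H3K27me3, the methylation placed by Polycomb repressive complex 2.

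The lists differed widely in extent within each genotype. Peaks covered 11.6, 15.4 and 21.2 Mb in Col-0 replicates 1 to 3 and 22.5, 10.9 and 27.8 Mb in ubp5 replicates 1 to 3. They touched 30.04%, 42.2% and 54.1% of the nuclear genes in Col-0 and 62.7%, 35.6% and 72.1% in ubp5. ubp5 replicate 2 had the shortest list of all and the other ubp5 replicates the longest. On the log2 scale of base pairs the mean covered length per gene was 8.61 ± 0.42 for Col-0 and 8.93 ± 0.62 for ubp5 (SD, n = 3 each), a difference smaller than the spread between replicates (two-sided exact permutation p = 0.5). With 3 samples against 3 this test cannot give a p below 0.1, so that none of the comparisons reported here could pass 0.05. A peak list does not hold the read depth behind it. The read totals that the study lists elsewhere were unequal, with the fewest mapped reads in ubp5 replicate 2 and the most in ubp5 replicate 3, and the study's methods name no step that evened them out before peak calling. Col-0 replicate 2 and ubp5 replicate 1, which were listed at similar depth, touched 42.2% and 62.7% of the genes. Their same-numbered inputs were listed at unequal depth, and this is a single pair of libraries with no replicate check. The part of depth in counts of peaks or of marked genes was not tested. The remaining comparisons therefore rest mainly on how the covered bases of 1 library were divided among genes, and each was repeated after every list had been cut, strongest peaks first, to the same covered length of about 10.9 Mb.

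By the rule that a gene is marked when a peak touches it in at least 2 libraries of a genotype, 7547 genes gained, 13053 kept and 1003 lost H2Aub in ubp5, which is 22.8%, 39.5% and 3.03% of all nuclear genes. Of the gained genes, 40.6% carried a peak in ubp5 replicates 1 and 3 only, and 38.2% had a peak in Col-0 replicate 3. Of the lost genes, 66.6% still had a peak in ubp5 replicate 3. Without ubp5 replicate 1 the counts became 2807 gained and 5121 lost, and without ubp5 replicate 3 they became 2773 gained and 5145 lost. The excess of gains over losses was thus turned around. With 1 library left out the rule still asked for 2 libraries. Both remaining libraries of that genotype then had to carry a peak, against 2 of 3 in the other genotype. Without Col-0 replicate 3, 11484 genes were gained and 345 lost, and without Col-0 replicate 2 the lost genes numbered 424. With all lists at equal covered length 3992 genes were gained and 2948 lost, or 12.1% and 8.92% of the nuclear genes. This cut fixes the total, so more coverage of some genes leaves less for others. A gene counted as lost there may still carry a weaker peak that the cut left out. The study's western blot found a higher bulk level of H2Aub in ubp5, which lists cut to equal length cannot show. Of the genes first counted as kept, 2684 were counted as lost at equal covered length and 1694 as gained.

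A stricter count asked for genes whose lowest covered length among the ubp5 libraries exceeded the highest of Col-0. It found 3919 genes (11.9%), against 1037 (3.14%) for the opposite order. Without ubp5 replicate 2 the first count was 10799, without Col-0 replicate 1 the second was 2617, and without ubp5 replicate 3 the second was 2205. Of the 1037 genes covered less in every ubp5 library, 883 kept a peak by the rule of 2 libraries and 154 lost it. Few gained genes lay in a region that was marked in Col-0 and had become wider: 1390 of 7547 (18.4%, 95% Wilson interval 17.6 to 19.3, counting error only) lay under a ubp5 region that overlapped a Col-0 region, and the other 6157 lay under regions without such an overlap. This share depended on the rule, and was 57.7% when at least 50% of a gene had to be covered and 54.7% when every library had to carry the peak.

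UBP5 itself, on chromosome 2 (chr2:17076311-17082528, minus strand, TAIR10 coordinates, 14 exons), had 0, 0 and 440 covered base pairs in Col-0 against 669, 655 and 657 in ubp5. Its covered stretch included the gene start in 1 Col-0 library and in all 3 ubp5 libraries. The peak lists do not show where the deletion lies, nor, since they hold no expression, whether the tissue markers of a seedling are present.

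Relative to the whole, basic cell functions and chromatin genes were covered more in ubp5 and transcription factors and specialised metabolism less. To lessen the weight of list size, the covered share of the class was divided by that of all nuclear genes in the same library. This ratio on a log2 scale is called relative coverage here. It still moved with list length in Col-0 replicates 1 to 3, at −1.48, −1.18 and −0.95 for genes of basic cell functions. The transcription factors had 0.92, 0.84 and 0.73. In ubp5 replicates 1 to 3 the values were −0.42, −0.45 and −0.42 for the first group and 0.45, 0.40 and 0.50 for the second. Among 58 classes, namely 49 functional classes taken from product names and gene symbols and 9 annotation biotypes, the relative coverage of 36 (62.1%) did not overlap between the genotypes. It was higher in every ubp5 library for 17 classes and lower in every ubp5 library for 19. Each of the 36 had an exact permutation p of 0.1, the smallest the design allows, and an adjusted p of 0.161 over the 58 classes (Benjamini-Hochberg on the exact tests). At equal covered length 33 of these 36 classes again did not overlap, in the same direction.

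**Figure D1:**
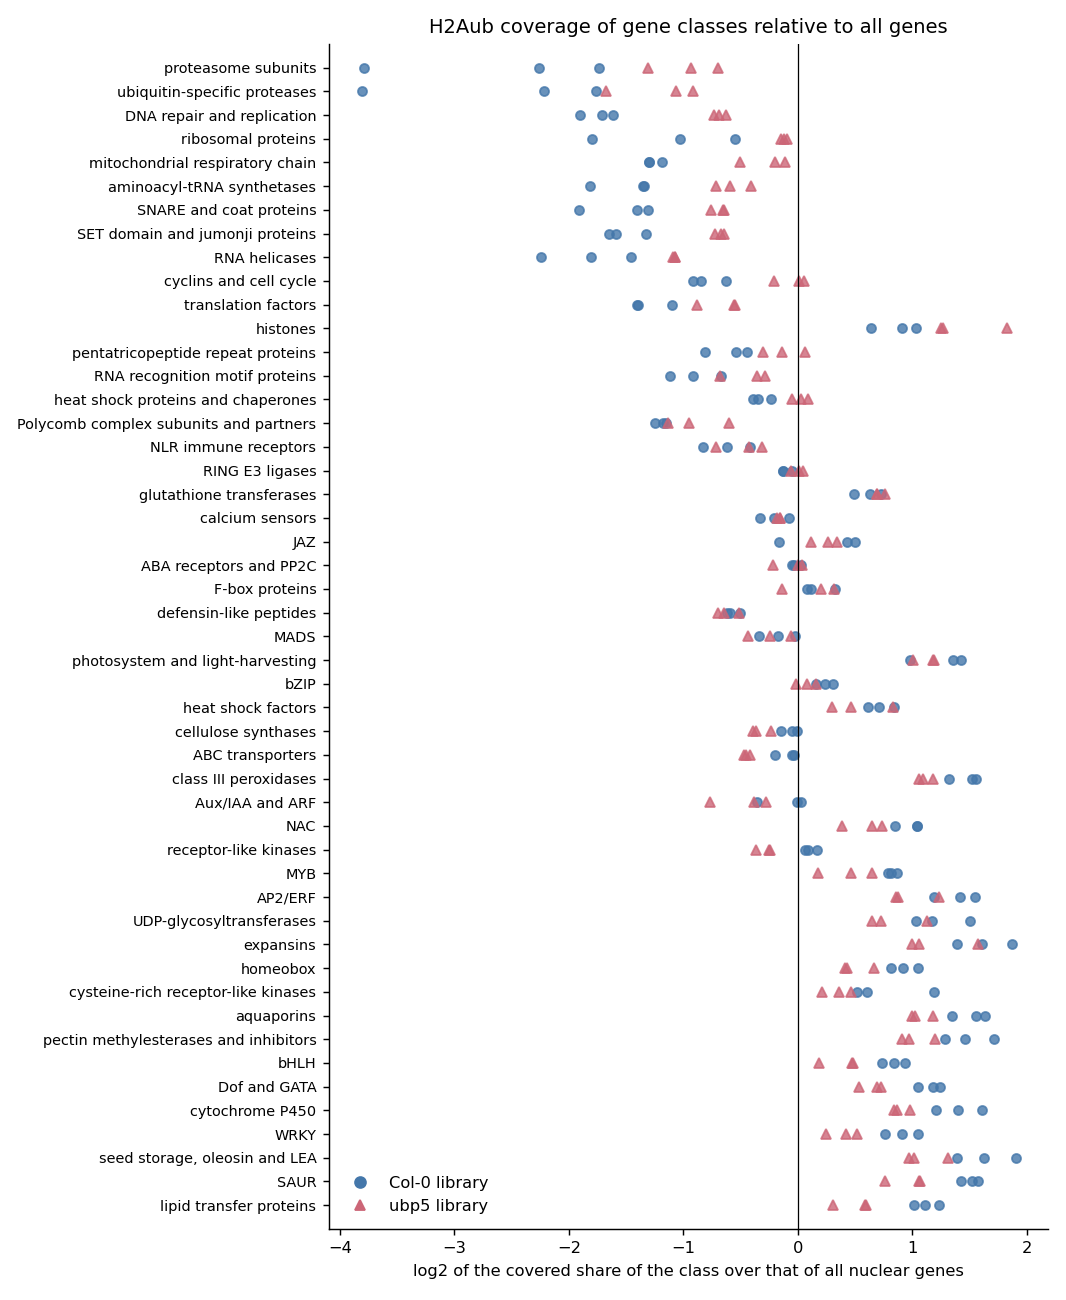
Relative H2Aub coverage of 49 functional gene classes, as the log2 ratio of the covered share of the class to that of all nuclear genes (horizontal axis), with 1 point per library (circles, Col-0; triangles, ubp5; 3 each). Proteasome, DNA repair and ribosomal protein genes sit at higher values in every ubp5 library, and lipid transfer protein, SAUR and cytochrome P450 genes at lower values in every ubp5 library.

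Genes of basic cell functions took a larger part of the H2Aub coverage in ubp5. Of the 11 housekeeping classes, 10 had higher relative coverage in every ubp5 library, the exception being RNA recognition motif proteins, which overlapped. Over all 1556 housekeeping genes the covered share of gene length was 5.11%, 8.32% and 13.2% in Col-0 against 20.9%, 10.6% and 24.5% in ubp5. ubp5 replicate 2 thus exceeded Col-0 replicates 1 and 2 but not replicate 3, although its list was the shortest of all. Relative to all genes the housekeeping group was 0.77 higher on the log2 scale in ubp5, and 1.01 higher at equal covered length. Of these genes 621 were gained (39.9%, against 22.8% of all genes) and 25 lost (1.61%, against 3.03%). At equal covered length 328 were gained and 50 lost, against 12.1% and 8.92% of all genes.

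With the full lists the largest difference among the functional classes was seen for the 39 genes of the proteasome, the protease that degrades ubiquitinated proteins. Peaks covered 1.03%, 3.94% and 7.59% of their length in Col-0 and 14.7%, 5.84% and 20.1% in ubp5, a relative gain of 1.62 on the log2 scale. ubp5 replicate 2 lay between Col-0 replicates 2 and 3. The relative coverage in Col-0 was −3.79, −2.26 and −1.74, so the gain leans on replicate 1, where coverage was near the floor. Of the 39 genes 3 (7.69%) were covered more in every ubp5 library, against 11.9% of all genes. At equal covered length the gain was 1.46, below the 2.09 of the ubiquitin-specific proteases. The 148 genes of DNA repair and replication went from 4.35%, 5.04% and 8.30% in Col-0 to 17.4%, 8.70% and 21.1% in ubp5, so that here even the covered shares themselves did not overlap. In that class 77 genes (52.0%) were gained and 1 (0.676%) was lost, against 22.8% and 3.03% of all genes. The 344 ribosomal protein genes, of cytosolic and organellar ribosomes together, were covered over 4.10%, 9.26% and 17.4% of their length in Col-0 and 25.7%, 13.1% and 30.6% in ubp5, a relative gain of 1.00.

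Aminoacyl-tRNA synthetases, which charge tRNAs with amino acids, and the subunits of the mitochondrial respiratory chain gained 0.94 and 0.99 in relative coverage. For the first, 25 of 59 genes were gained and 3 lost, and for the second 36 of 83 were gained and 0 lost, against 22.8% gained and 3.03% lost among all genes, so that the counts of lost genes in classes of this size are near the background. Translation factors gained 0.63, RNA helicases 0.75, cyclins and other cell cycle genes 0.75, SNARE and coat proteins of vesicle transport 0.86 and pentatricopeptide repeat proteins, which process organellar RNA, 0.47. Heat shock proteins and chaperones, grouped with metabolism in the lists, gained 0.35. Each of these classes kept its order between the genotypes at equal covered length.

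All 4 chromatin classes had higher relative coverage in every ubp5 library. The 49 ubiquitin-specific protease genes, among them UBP5, were covered over 1.01%, 4.07% and 7.48% of their length in Col-0 and 13.4%, 4.52% and 17.3% in ubp5, a relative gain of 1.38. Their relative coverage in Col-0 was −3.81, −2.21 and −1.76, so this gain too leans on replicate 1, near the floor. SET domain and jumonji proteins, which add and remove histone methylation, gained 0.85, with 35 of 69 genes (50.7%, against 22.8% of all genes) gained. The 48 histone genes differed from the other classes of this kind in being well covered in Col-0 already. Their covered share was 22.1%, 35.5% and 51.8% in Col-0, compared with 67.4%, 51.3% and 77.8% in ubp5, and ubp5 replicate 2, with the shortest list, came to the level of the best covered Col-0 library. The 29 Polycomb complex subunits and partners gained only 0.30, and at equal covered length their relative coverage overlapped between the genotypes. This class was matched by gene symbol and lacks BMI1C and the PWO genes, whose symbols found no match in the annotation.

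Single genes of these classes were taken by rule, as the member with the longest difference in covered length among those covered more in every ubp5 library. RPN5B (AT5G64760, chr5:25893780-25896586), a subunit of the regulatory particle of the proteasome, had 0 covered base pairs in all 3 Col-0 libraries and 761, 600 and 855 in ubp5. AT3G62790 (chr3:23223030-23224326), annotated as an NADH-ubiquinone oxidoreductase-like protein, likewise had 0 in every Col-0 library and 1297, 474 and 1283 in ubp5, of a gene of 1297 bp. VPS2.3 (AT1G03950, chr1:1011151-1013365), a vacuolar protein sorting gene, went from 0 in every Col-0 library to 2004, 2011 and 2022. In these 3 genes the genotypes did not overlap and no Col-0 library had a peak.

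AT5G47940 (chr5:19409242-19412077), annotated as 40S ribosomal protein S27, had 0, 0 and 656 covered base pairs in Col-0 against 2474, 2466 and 2561 in ubp5. The tyrosyl-tRNA synthetase gene AT2G33840 (chr2:14314710-14317578) had 0, 0 and 610 in Col-0 against 2869, 2100 and 2869 in ubp5, which in replicates 1 and 3 is the whole gene. The cyclin gene CYC1BAT (AT5G06150, chr5:1859279-1861703) had 0, 0 and 1434 in Col-0, compared with 2425, 2067 and 2425 in ubp5. In all 3 genes Col-0 replicate 3, the longest Col-0 list, was the only Col-0 library with a peak, and they remained covered more in every ubp5 library at equal covered length.

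AT4G26240 (chr4:13286481-13289057), annotated as a histone-lysine N-methyltransferase, had 0, 0 and 708 covered base pairs in Col-0 against 1734, 1204 and 1763 in ubp5. AT5G50930 (chr5:20722069-20724481), of the histone superfamily, had 0, 0 and 342 in Col-0 against 2018, 1802 and 2135 in ubp5. UBP10 (AT4G10590, chr4:6538406-6544915), a relative of UBP5, had 0 in every Col-0 library and 1654, 317 and 1938 in ubp5. For UBP10, VPS2.3 and RPN5B the rule of 2 libraries no longer counted a gain at equal covered length, whereas for AT4G26240 and AT5G50930 it did. At that setting the covered length of AT5G50930 overlapped between the genotypes. TRB2 (AT5G67580, chr5:26955568-26957774), a telomere repeat binding protein and partner of Polycomb repressive complex 2, had 0 in every Col-0 library and 985, 683 and 983 in ubp5.

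Transcription factors and genes of specialised metabolism and the cell wall had lower relative coverage in ubp5. More of their genes kept H2Aub than gained or lost it, which was also so among all nuclear genes. Of 985 transcription factor genes 586 were kept (59.5%, against 39.5% of all genes), 112 gained (11.4%, against 22.8%) and 49 lost (4.97%, against 3.03%). Peaks covered 27.01%, 33.8% and 42.0% of their length in Col-0 and 38.3%, 19.1% and 46.1% in ubp5, so that the covered share itself overlapped between the genotypes while the share relative to all genes differed by −0.38 on the log2 scale (ubp5 minus Col-0). At equal covered length 53 of the transcription factor genes were gained and 165 lost, against 12.1% and 8.92% of all genes. Relative coverage was lower in every ubp5 library for 7 of the 10 transcription factor classes, namely WRKY (a log2 difference of −0.51), Dof and GATA (−0.50), bHLH (−0.46), homeobox (−0.42), MYB (−0.40), NAC (−0.39) and bZIP (−0.16). The bZIP class overlapped at equal covered length. AP2/ERF genes, heat shock factors and MADS genes overlapped between the genotypes.

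Of the 10 classes of metabolism and cell wall, 7 were lower in every ubp5 library. Lipid transfer proteins, which carry lipids to the cell surface, had the largest difference of these, −0.63. Of their 128 genes 3 were gained (2.34%), 67 kept (52.3%) and 10 lost (7.81%), against 22.8%, 39.5% and 3.03% of all genes. The 249 cytochrome P450 genes, oxygenases of hormone and specialised metabolism, were covered over 43.3%, 49.9% and 58.7% of their length in Col-0 and 51.2%, 28.5% and 58.4% in ubp5. Of these 185 were kept (74.3%), 17 gained (6.83%) and 4 lost (1.61%), against 39.5%, 22.8% and 3.03% of all genes. At equal covered length 11 were gained and 58 lost, against 12.1% and 8.92% of all genes. Pectin methylesterases and their inhibitors differed by −0.46, aquaporins by −0.45, class III peroxidases and ABC transporters by −0.35 each and cellulose synthases by −0.26. Class III peroxidase genes, whose products modify the cell wall, were covered over 41.8%, 54.4% and 63.2% of their length in Col-0 and 58.5%, 32.8% and 69.6% in ubp5.

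Among the remaining groups, SAUR genes, small auxin-responsive genes of cell expansion, differed by −0.55. Of the 78 SAUR genes 28 were lost at equal covered length, against 8.92% of all genes. With the full lists 3 (3.85%) were lost, near the 3.03% of all genes. Genes for seed storage proteins, oleosins and late embryogenesis abundant proteins differed by −0.54, receptor-like kinases by −0.39 and cysteine-rich receptor-like kinases by −0.43. Immune receptors of the NLR type, F-box proteins, RING E3 ligases, calcium sensors and defensin-like peptides overlapped between the genotypes, as did photosystem and light-harvesting genes, of which 15 of 62 (24.2%, near the 22.8% of all genes) were gained and 44 (71.0%, against 39.5% of all genes) kept. An overlap does not show that a class was covered alike.

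Because the classes differ in gene length, the covered bases of each class were also set against protein-coding genes of the same length bin, a reference chosen after the class values had been seen. All 33 functional classes that did not overlap kept their direction and 31 again did not overlap, the exceptions being bZIP genes and the Polycomb subunits. Among the non-coding biotypes, small nucleolar RNA genes, whose products guide the modification of ribosomal RNA, had the largest relative difference. Their covered share was 3.01%, 9.64% and 21.4% in Col-0, compared with 33.6%, 16.3% and 40.6% in ubp5, a relative gain of 1.40. Of the 287 genes of this kind, 84 (29.3%) overlapped a protein-coding gene, whose peaks are counted for both.

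The members with the longest decrease in the classes of lower relative coverage were named by the same rule. ROT3 (AT4G36380, chr4:17187528-17192507), a cytochrome P450 of brassinosteroid synthesis, had 3608, 2788 and 2760 covered base pairs in Col-0 against 561, 514 and 2635 in ubp5. PGP10 (AT1G10680, chr1:3538333-3543925), an ABC transporter gene, had 4165, 3981 and 4042 in Col-0 against 2321, 0 and 2316 in ubp5. PME3 (AT3G14310, chr3:4771833-4775258), a pectin methylesterase, had 2793, 3214 and 3235 in Col-0, compared with 2452, 0 and 2608 in ubp5. In PGP10 and PME3 ubp5 replicate 2, the shortest list, had no peak, while the other ubp5 libraries kept a shorter one.

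BLH1 (AT2G35940, chr2:15088762-15092415), a BEL1-like homeodomain gene, was covered in every library but less in ubp5, with 2966, 3248 and 3232 covered base pairs in Col-0 against 2092, 2483 and 2150 in ubp5. WRKY26 (AT5G07100, chr5:2204206-2205965) had 1460, 1583 and 1692 in Col-0 against 0, 0 and 752 in ubp5. The receptor-like kinase gene AT2G21480 (chr2:9202494-9205471) had 2789, 1927 and 1680 in Col-0, compared with 0, 0 and 354 in ubp5. ABI5 (AT2G36270, chr2:15204659-15207636), a bZIP factor of abscisic acid signalling in seeds, had 981, 883 and 1454 in Col-0 against 550, 0 and 526 in ubp5. The genotypes did not overlap in these 4 genes, which was a condition of being named, and in WRKY26 and AT2G21480 a peak persisted in ubp5 replicate 3, the longest list. At equal covered length WRKY26, ABI5 and PGP10 overlapped between the genotypes, while ROT3, PME3, BLH1 and AT2G21480 were again covered less in every ubp5 library.

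A complete loss in all 3 ubp5 libraries was seen in a few of the named genes. MYB110 (AT3G29020, chr3:11008079-11009456) had 748, 656 and 1108 covered base pairs in Col-0 and 0 in each ubp5 library. The lipid transfer protein gene AT1G62500 (chr1:23131928-23133507) had 1405, 1048 and 1415 in Col-0 and 0 in each ubp5 library. Both genes were, with lists of equal covered length, marked in fewer than 2 Col-0 libraries, and they were no longer counted as lost. Other genes taken by the rule that had 0 in each ubp5 library were still counted as lost there. These were AT1G53705 (225, 219 and 227 in Col-0), AT2G14870 (306 in each Col-0 library) and AT1G77930 (387, 395 and 525). AT1G53705 and AT2G14870 were also covered less in every ubp5 library at that setting. CRK13 (AT4G23210, chr4:12148673-12151638), a cysteine-rich receptor-like kinase gene, had 734, 0 and 716 covered base pairs in ubp5 against 1355, 927 and 1622 in Col-0, and its start was under a peak in all 3 Col-0 libraries and in no ubp5 library.

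Genes that lost or gained H2Aub at their start are shown with the 200 bases before it, read from the RefSeq TAIR10.1 genome in the direction of the gene. These are the sequences next to which the mark appeared or disappeared. Capitals mark matches on either strand to the short motifs searched, namely the telobox core AAACCCTA, the site II element TGGGCC, the GAGA repeat GAGAGAGA, the TATA box TATAAA, the G-box CACGTG and the W-box core TTGACC. The start of each of the first 2 genes was under a peak in every Col-0 library and in no ubp5 library, and the start of VPS2.3 in every ubp5 library and in no Col-0 library.
MYB110 (chr3:11009457-11009656, minus strand): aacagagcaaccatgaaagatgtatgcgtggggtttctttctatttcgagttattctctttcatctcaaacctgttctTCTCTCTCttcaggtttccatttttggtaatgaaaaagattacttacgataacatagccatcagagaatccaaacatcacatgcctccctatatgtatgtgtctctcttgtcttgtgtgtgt
AT1G62500 (chr1:23131728-23131927, plus strand): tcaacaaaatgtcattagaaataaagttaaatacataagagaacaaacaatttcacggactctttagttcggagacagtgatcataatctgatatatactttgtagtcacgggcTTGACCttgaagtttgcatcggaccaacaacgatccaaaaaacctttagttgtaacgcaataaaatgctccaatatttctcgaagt
VPS2.3 (chr1:1013366-1013565, minus strand): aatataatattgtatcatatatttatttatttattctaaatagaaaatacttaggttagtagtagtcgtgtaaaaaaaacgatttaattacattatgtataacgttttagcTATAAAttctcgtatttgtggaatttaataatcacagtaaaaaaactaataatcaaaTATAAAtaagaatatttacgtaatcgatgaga
Of the 3, MYB110 held a GAGA repeat, AT1G62500 a W-box core and VPS2.3 TATA boxes. A match is a description of these letters and not a bound site.

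Across all protein-coding genes the site II element differed most between the categories. The site II element, known from the promoters of genes that are active in dividing cells, was present in the 250 bases before the start of 13.7% of all protein-coding genes, of 20.8% of the gained, 12.2% of the kept and 7.48% of the lost genes. With lists of equal length the shares were 23.9%, 12.1% and 8.30%. The TATA box varied less, at 45.2%, 48.1% and 46.3% against 47.3% of all, and the GAGA repeat was at 4.90%, 4.76% and 5.58% against 4.91%. The W-box core was at 12.3%, 12.0% and 11.9% against 12.2%, the G-box at 7.10%, 7.64% and 6.08% against 6.49% and the telobox core at 4.97%, 3.47% and 6.21% against 4.49%.

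The 3747 genes with a site II element were covered over 8.71%, 13.3% and 19.3% of their length in Col-0 and 26.7%, 14.8% and 29.97% in ubp5. Relative to all protein-coding genes this was −0.72, −0.51 and −0.40 on the log2 scale in Col-0 against −0.07, 0.02 and −0.12 in ubp5, so that these genes were below the average in Col-0 and close to it in ubp5 (exact permutation p = 0.1, and the same order at equal covered length, with a difference of 0.71). The motif and the gene classes overlapped: 28.3% of the housekeeping genes held a site II element, against 4.77% of the transcription factors and 7.90% of the genes of metabolism and cell wall. Within the housekeeping genes the element did not mark the gained ones, with 29.0% of the gained, 25.7% of the kept and 30.2% of the unmarked genes. Of the named genes covered more in ubp5, RPN5B, AT3G62790 and AT4G26240 held the element in the 200 bases before their start. These were chosen for the motif, and their sequences show where it lies relative to the gene start. The bases shown for AT4G26240 were all covered in Col-0 replicate 3 as well. Those of AT3G62790 had 1 covered base in ubp5 replicate 1 and 0 in every other library.
RPN5B (chr5:25896587-25896786, minus strand): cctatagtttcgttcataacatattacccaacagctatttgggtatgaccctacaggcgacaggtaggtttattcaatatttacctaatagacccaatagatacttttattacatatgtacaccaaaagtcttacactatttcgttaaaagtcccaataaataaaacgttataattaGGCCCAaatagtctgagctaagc
AT3G62790 (chr3:23224327-23224526, minus strand): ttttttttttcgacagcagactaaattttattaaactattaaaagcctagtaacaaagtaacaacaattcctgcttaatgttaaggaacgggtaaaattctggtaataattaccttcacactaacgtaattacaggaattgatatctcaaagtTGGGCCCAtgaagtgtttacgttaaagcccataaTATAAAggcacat
AT4G26240 (chr4:13289058-13289257, minus strand): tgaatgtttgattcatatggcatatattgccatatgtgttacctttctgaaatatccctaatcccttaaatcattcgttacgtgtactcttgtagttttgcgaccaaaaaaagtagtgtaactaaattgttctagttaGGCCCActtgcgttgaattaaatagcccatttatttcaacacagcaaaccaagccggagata
In AT3G62790 the capitals hold overlapping matches to the element on both strands, and a TATA box nearer to the start.

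Gained genes were long and rich in exons. The median length of gained protein-coding genes was 2477 bp, against 2076 bp for kept, 1709 bp for lost and 1680 bp for unmarked genes, and the median exon number was 6 for the gained and 3 for each of the other categories. Genes with a single exon made up 8.99% of the gained, 23.2% of the kept and 28.6% of the lost genes. The gained share rose with each step in length, from 7.76% of the genes under 500 bp over 24.8% at 1500 to 2000 bp to 40.6% of the 881 genes of 6000 bp or more. The lost share fell over the same range from 4.61% to 0.908%. At equal covered length the gained share again rose, from 3.88% to 22.0%, while the lost share was highest at 13.4% for genes of 500 to 1000 bp. In both settings a gene counted as marked once a peak touched any part of it, which gives longer genes more room to be touched. With the full lists 66.5% of the genes under 500 bp were unmarked, against 21.7% of those of 2000 to 3000 bp.

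**Figure D2:**
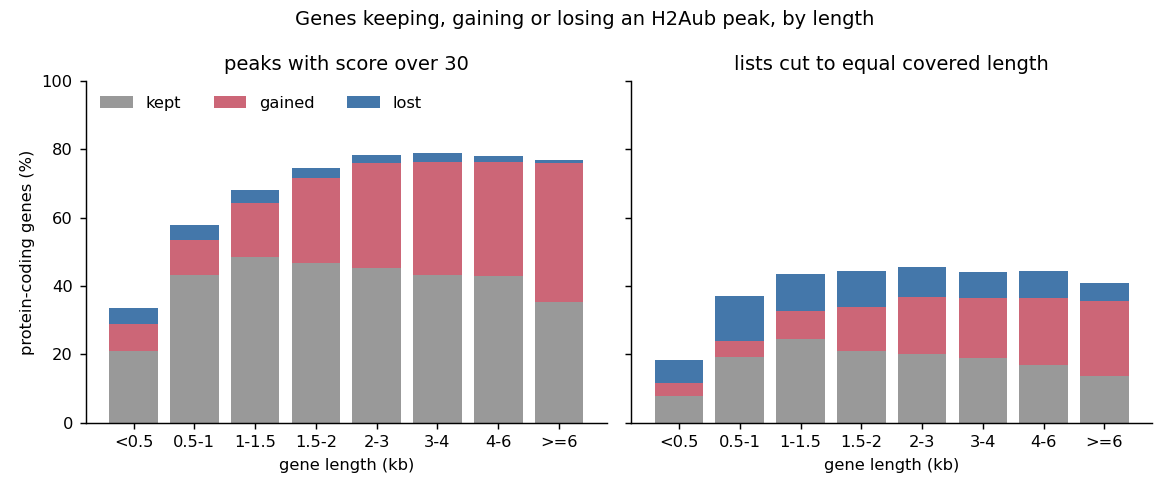
Protein-coding genes that kept, gained or lost an H2Aub peak in ubp5, in percent of the genes of each length bin (horizontal axis, kb), with peaks of score over 30 (left) and with all lists cut to the same covered length (right). The gained share grows with length in both panels, from 7.76% to 40.6% and from 3.88% to 22.0%.

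Long genes were poorly covered in Col-0, and this deficit was smaller in ubp5. The covered share of protein-coding genes of at least 4 kb over that of genes under 1 kb was −2.42, −2.18 and −1.97 on the log2 scale in Col-0, compared with −1.59, −1.63 and −1.58 in ubp5. The genotypes did not overlap, and the difference of 0.59 was larger than the spread between replicates (SD 0.23 in Col-0 and 0.03 in ubp5, exact permutation p = 0.1, adjusted p = 0.2 over the 4 comparisons of 1 value per library). In Col-0 the ratio rose with list length, and the 3 ubp5 lists, which differed more in length, gave nearly the same ratio. The part of list length in the difference between the genotypes was not tested. At equal covered length the difference was 0.78.

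Exon number and gene length moved together, and the exon number was also seen within narrow length bands. Among genes of 1500 to 2000 bp, 16.9% of those with 1 exon were gained, 22.0% with 2 or 3 exons, 29.6% with 4 to 6 and 35.8% with 7 or more. Their kept share fell in the same order, from 62.8% over 52.7% and 36.8% to 26.5%. Among genes of 2000 to 3000 bp the gained share rose from 18.8% to 38.9%. In both bands the genes with 7 or more exons had higher relative coverage in every ubp5 library, by 0.80 and 0.43 on the log2 scale.

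**Figure D3:**
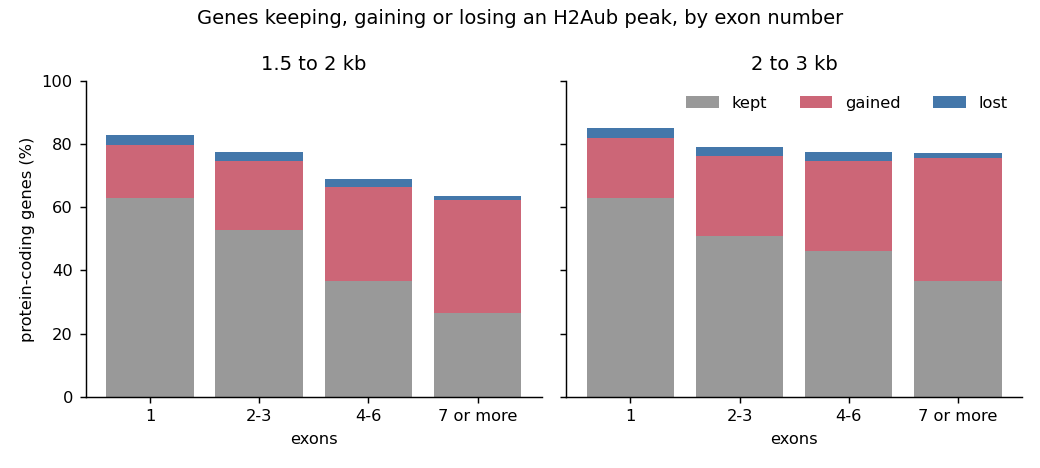
Protein-coding genes that kept, gained or lost an H2Aub peak in ubp5, in percent, by exon number (horizontal axis) within 2 bands of gene length. The gained share rises with exon number, from 16.9% to 35.8% in the shorter band and from 18.8% to 38.9% in the longer band, while the kept share falls.

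In ubp5 the coverage lay more in the first part of genes. Over protein-coding genes of at least 1 kb the covered bases of the first 25% of the gene over those of the last 25% came to 1.21, 1.37 and 1.29 on the log2 scale in Col-0 against 2.00, 2.38 and 1.92 in ubp5. The genotypes did not overlap (difference 0.81, SD 0.08 in Col-0 and 0.24 in ubp5, exact permutation p = 0.1, adjusted p = 0.2 over the same 4 comparisons), and at equal covered length the difference was 1.02. In genes of 4000 to 6000 bp the first 25% was covered over 22.7% ± 9.0 in Col-0 and 41.3% ± 15.3 in ubp5 (SD, n = 3 each), and the last 25% over 7.01% ± 2.47 and 6.63% ± 3.70. In genes of 2000 to 3000 bp the first 25% was at 32.9% ± 10.9 and 52.8% ± 19.3, and the last at 13.2% ± 4.2 and 12.3% ± 5.8. Each of these stretches taken alone overlapped between the genotypes, with ubp5 replicate 2 inside or under the Col-0 range.

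Around the start of protein-coding genes of at least 2 kb the coverage peaked within the first 1000 bp of the gene in kept and in gained genes. At 400 to 500 bp after the start, 71.4% ± 16.7 of the bases of kept genes were covered in Col-0 and 80.1% ± 17.0 in ubp5 (SD, n = 3 each). In gained genes, which were selected by these peaks, the same position was covered in 88.3%, 34.1% and 92.0% of the bases in ubp5 replicates 1 to 3, and at 1500 to 1600 bp after the start in 5.60%, 1.51% and 6.07%. Kept genes were still covered over 31.2%, 17.2% and 32.9% there. The kept genes of Col-0 had 24.2%, 29.4% and 35.4% at that distance, so that downstream coverage of the kept genes overlapped between the genotypes.

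**Figure D4:**
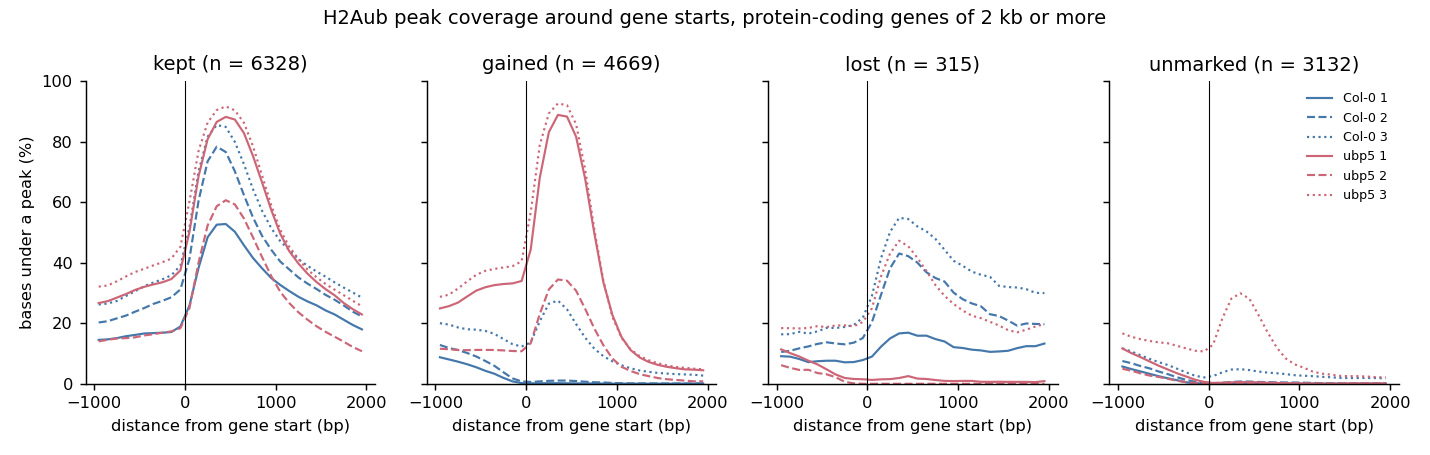
Bases under an H2Aub peak, in percent, by distance from the gene start (horizontal axis, bp), for protein-coding genes of 2 kb or more in each category, with 1 line per library (blue, Col-0; red, ubp5; solid, dashed and dotted, replicates 1, 2 and 3). Categories were chosen from these peaks. Gained genes are covered mainly in the first 1000 bp, reaching 88.3%, 34.1% and 92.0% at 400 to 500 bp in the 3 ubp5 libraries.

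H3K27me3 marked different shares of the categories. A peak for this mark in both Col-0 H3K27me3 libraries was present in 6.33% of the gained, 30.6% of the kept, 28.9% of the lost and 17.1% of the unmarked protein-coding genes, against 20.6% of all. The shares with lists of equal length were 3.39% of the gained, 29.9% of the kept and 41.1% of the lost genes. Among the functional classes of higher relative coverage the share ran from 0% of the proteasome genes over 5.41% of the DNA repair and replication genes, 10.2% of the aminoacyl-tRNA synthetases and 12.5% of the histones to 20.7% of the Polycomb subunits, the last being the share of all genes. Among those of lower relative coverage the share ran from 9.76% of the cysteine-rich receptor-like kinases to 61.8% of the class III peroxidase genes. Between them lay 21.3% of the ABC transporters, 26.9% of the SAUR genes, 31.6% of the cellulose synthases, 52.1% of the WRKY genes and 53.4% of the MYB genes. Cysteine-rich receptor-like kinases, at 9.76%, and receptor-like kinases, at 18.8%, had lower relative H2Aub coverage without a share of H3K27me3 above that of all genes.

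Along the chromosomes the coverage rose from the centromere outwards in both genotypes. The covered share of genes within 2 Mb of a centromere over that of all others was −1.16, −1.12 and −1.11 on the log2 scale in Col-0 against −1.13, −1.42 and −1.04 in ubp5. The genotypes overlapped (exact permutation p = 0.8), and without ubp5 replicate 2 the sign of the difference turned from −0.07 to 0.04. Of the protein-coding genes within 2 Mb, 13.7% were gained and 2.88% lost, against 25.7% and 2.88% beyond. In the innermost 1 Mb the gained share was 4.97% of 382 genes, and it stayed between 25.7% and 26.6% in each zone from 3 Mb outwards.

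**Figure D5:**
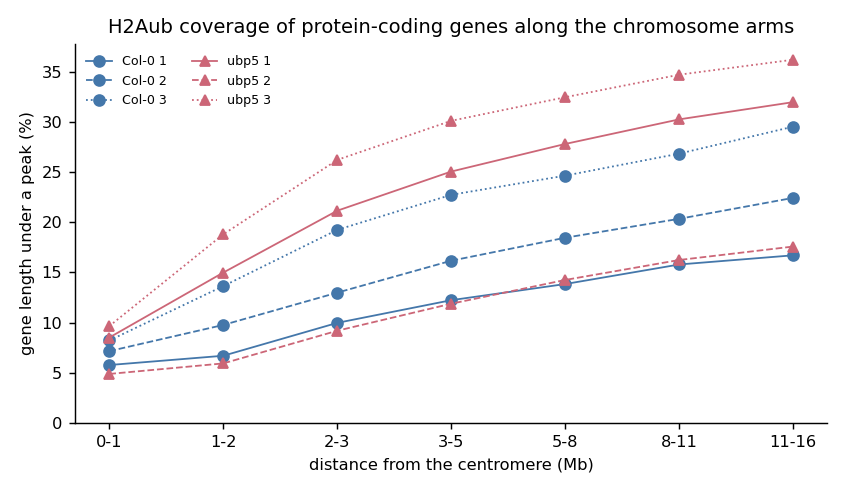
Share of the length of protein-coding genes under an H2Aub peak, in percent, by distance from the centromere (horizontal axis, Mb), with 1 line per library (circles, Col-0; triangles, ubp5). Every library rises from the centromere outwards, and ubp5 replicate 2 runs with Col-0 replicate 1 while the other ubp5 libraries lie above all Col-0 libraries.

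The kept share of protein-coding genes rose all the way along the arms, from 10.2% in the innermost 1 Mb to 52.4% at 11 to 16 Mb. Genes within 1 Mb of a chromosome end had 54.3% kept and 23.6% gained, and their relative coverage differed by −0.12 on the log2 scale (ubp5 minus Col-0) without an overlap, also at equal covered length. The 5 chromosomes gained similar shares of their protein-coding genes, from 23.9% on chromosome 2 to 26.9% on chromosome 5, and lost from 2.73% to 3.10%. In all 112 windows of 1 Mb with at least 50 protein-coding genes more genes were gained than lost. The full lists gave this excess over all genes, where it turned around without ubp5 replicate 1 or 3. The windows are therefore no separate check of it. The relative coverage of 15 windows was higher and of 14 lower in every ubp5 library. Relative coverage differed by −0.05 on each of chromosomes 2 and 4 and by 0.02 on chromosome 5 without an overlap, of which chromosomes 4 and 5 again did not overlap at equal covered length, and it overlapped on chromosomes 1 and 3.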

How the data were processed

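H2Aub was profiled by ChIP-seq in seedlings of 2 genotypes, with 3 samples each. Per the study's methods the authors aligned reads to TAIR10 with STAR 2.7.8a, kept uniquely mapped nuclear reads, removed duplicates and called broad peaks per sample with MACS3 (version 3.0.0 in the submitters' processing notes). The deposited lists hold, for each peak, a score (10 times the −log10 q, cut to a whole number), a fold enrichment and the −log10 of p and q. The H2Aub lists, as deposited, start at a −log10 q of 3.00. The score chose the peaks (over 30) and −log10 q ranked them for the cut to equal covered length. The fold ratio deposited by the authors was not used.

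Peak bases per gene were counted on the RefSeq TAIR10.1 annotation, whose nuclear chromosomes held every peak, with Python 3.11.15, NumPy 2.4.6, pandas 2.3.3 and SciPy 1.17.1. A base in overlapping genes counted for each. Groups came from the sample labels. The labels do not say how many plants a replicate pools, and p-values measure the spread between these samples. Values per library were compared by two-sided exact permutation tests over the 20 splits, with Benjamini-Hochberg adjustment. Relative coverage was computed for classes of at least 10 members, taken from names, with cytosolic and organellar ribosomal proteins as 1 class because names do not separate them. Centromeres were placed at the assembly gaps. Misassigned members were removed by name after the first results had been seen. The 1 member of each class with the longest difference in covered length was named, in each direction, among those that did not overlap. Members, classes and tests were chosen with earlier results of these data known. Counting and categories were tested on simulated peaks. Alternatives were equal covered length, a score over 60, all deposited peaks, protein-coding genes, at least 50% of the gene covered, a peak in every library, other limits for position and length, and leaving out each sample. Read totals per sample are given by the study but not in the lists, and were not used in any calculation.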

Additional observations from a re-analysis of the deposited data

How the results depend on the processing

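The 33 functional classes that did not overlap kept their direction under all 363 alternatives run on them. The long over short and start over end differences kept theirs under every alternative run. Where libraries did not overlap, leaving out 1 of them could not turn the direction, so those alternatives are no check of it. The number of classes that did not overlap ranged from 29 (score over 60) to 43 (equal covered length). It was 37 to 42 when 1 library was left out, where it could not fall below the 36 of the full set. The counts of genes depended on the processing. When 1 library was left out, a marked gene still needed a peak in 2 libraries, that is in both remaining ones of that genotype. Gained genes numbered 3992 at equal covered length, 2591 when at least 50% of the gene had to be covered, 4925 with a peak in every library and 2773 to 11484 when 1 library was left out. Kept genes numbered 5750, 6232 and 6746 under the same 3 settings and 8911 to 13017 without 1 library. Lost genes numbered 2948 at equal covered length, 2675 with a peak in every library and 345 to 5145 without 1 library. Genes covered more in every ubp5 library numbered 1594 with a score over 60 and 3990 to 10799 without 1 library, and those covered less 1903 at equal covered length and 1076 to 2617 without 1 library. The share of gained genes reached from a Col-0 region was 13.7% at equal covered length, 13.5% with a score over 60, 16.5% for protein-coding genes, 57.7% with at least 50% of the gene covered, 54.7% with a peak in every library and 13.63% to 18.6% without 1 library. The cause of these shifts was not tested.

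Without 1 library the difference in covered length per gene ranged from 0.09 to 0.67, that in pericentromeric relative coverage from −0.15 to 0.04, with the sign turned (0.041) only without ubp5 replicate 2, that in long over short coverage from 0.47 to 0.70 and that in start over end coverage from 0.67 to 0.90. Among genes taken by the naming rule the difference in covered base pairs changed sign for AT5G57970 (226), LTP4 (−228) and AT3G24605 (−102) at equal covered length and for GATA13 (171), AT1G02810 (−513) and LTP4 (−151) with a score over 60. With the replicate number as a block the differences stayed 0.32, −0.07, 0.59 and 0.81, with exact sign-flip p of 0.75, 1, 0.25 and 0.25, where 0.25 is the smallest possible. Same-numbered libraries deviated together in 1 of 3 pairs (correlations of −0.12, 0.06 and 0.30). These 3 values are too few to show whether the replicate numbers pair the samples. Read totals were not used in any calculation, and an absent peak does not show that the mark is absent.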
